A study of Mus musculus with 25 samples.

Results

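The response of the RAW264.7 macrophage cell line to 4 h of lipopolysaccharide (LPS) was described across all genes from 4 of the 25 RNA-seq libraries of a mouse macrophage study. The members were chosen by their labels alone, as the 2 control libraries and the 2 LPS libraries of this line, and no measured value entered the choice. RAW264.7 is an established macrophage line from BALB/c mice carrying Abelson leukaemia virus, and the study grew it in RPMI medium with serum. The control cells were cultured for 4 h, and the treated cells received LPS of serotype 055:B5 at 100 ng/ml for 4 h. The other libraries of the study came from bone marrow-derived macrophages (BMDMs), which were grown from C57BL/6 marrow with M-CSF. Of these, 3 control libraries and 3 libraries treated with 100 U/ml IFN-γ and 100 ng/ml LPS, labelled 4 h, serve below as the comparison. The study describes the latter cells as primed with IFN-γ, that is pretreated, and gives no length for the priming. BMDMs given LPS without IFN-γ were not analysed here. Both groups are the same transformed line, so they stand for that line and not for several animals. The labels do not say whether the 2 libraries of a group came from separate cultures, so the p-values measure the spread between these libraries only, which may be technical. In the fit of the 4 libraries this spread was in effect pooled over genes. The spread of a gene's own replicates thus hardly enters its p-value or standard error.

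LPS, the outer membrane lipid of Gram-negative bacteria, is handed by CD14 to the receptor TLR4 with its partner MD-2. From there the adaptor MyD88 leads to the kinases that free NF-κB and activate AP-1, while the adaptor TRIF leads to TBK1, IRF3 and type I interferon, whose receptor then drives the interferon-stimulated genes. Macrophages answer within hours with cytokines and chemokines, with feedback inhibitors of the same pathway, and with changes in metabolism and proliferation.

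Counts on the sense strand of genes ran from 2726149 to 3002569 per RAW264.7 library, of which the ribosomal precursor Rn45s took 20.1% to 25.3%. Without it, 2136198 to 2391998 counts per library were left for analysis. Levels are given as CPM, the count scaled to a common library total, with TMM factors that set aside genes with extreme ratios. Log-scale levels correlated at 0.984 within both groups and at 0.889 to 0.892 between control and LPS libraries, a description over 9406 genes. Replicate counts differed by more than sampling noise, with a chi-square of 1.78 per degree of freedom between the control libraries and 1.70 between the LPS libraries. The label was checked against 14 macrophage markers. Of these, 12 had enough counts to be tested and 1, the efferocytosis receptor Mertk, was at 0 in all 4 libraries. Their summed level was 11566 and 11856 CPM in the control libraries and 14145 and 13520.1 CPM in the LPS libraries, and Lyz2, the macrophage lysozyme, held most of it. Of 52 markers of lymphoid, granulocytic, dendritic, mast, stromal, epithelial, endothelial, erythroid and platelet cells, 36 were at 0 in all 4 libraries. All 52 together came to between 8.56 and 12.9 CPM in a library. In a bulk sample, fewer cells of a type and less RNA per cell cannot be told apart.

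LPS changed many genes by small amounts and a few by very large ones. Of 9406 genes with enough counts to test, 1418 (15.1%) rose and 1207 (12.8%) fell at an adjusted p of at most 0.01 by edgeR's quasi-likelihood test. Among these 2625 genes, 1584 (60.3%) moved by less than 1 on the log2 scale, and the median size of the change was 0.84. With the further requirement that the log2 fold change reach 2 in size, which together with this adjusted p makes up the cutoffs used by the study for the line, 225 genes (2.39%) were higher and 78 genes (0.829%) were lower. Both LPS libraries lay above both control libraries for each of the 225, and below both for each of the 78. The 225 genes held 0.604% and 0.604% of the counts in the control libraries and 5.60% and 5.75% in the LPS libraries. The 78 genes held 0.281% and 0.273% of the control counts and 0.0412% and 0.0441% of the LPS counts, and 30 of them had a control mean under 10 CPM. The median log2 fold change over all genes tested was -0.000281. It was -0.18 when libraries were scaled by their total counts alone, and the split of genes at the adjusted p then went from 1418 higher and 1207 lower to 876 higher and 2007 lower. Small changes of either sign are thus given relative to the typical gene.

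**Figure D1:**
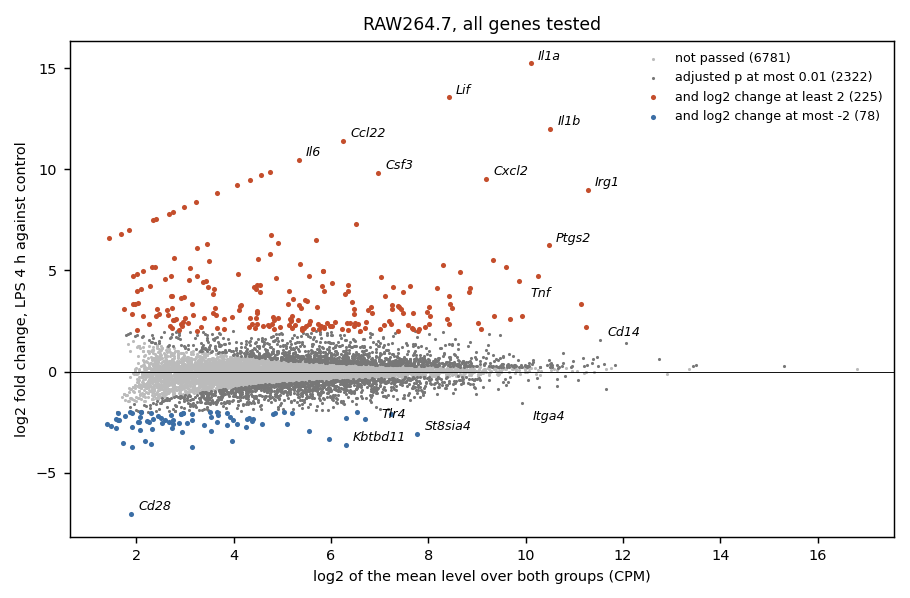
Log2 fold change (LPS 4 h against control, vertical axis) against the log2 mean level in CPM (horizontal axis) for the 9406 genes tested in RAW264.7. Red points are the 225 genes higher and blue points the 78 genes lower past the cutoffs, and the higher side reaches both larger changes and higher levels.

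The largest increases were those of cytokines, chemokines and the enzyme Irg1. Of the 225 genes past the cutoffs, 18 had 0 counts in both control libraries and 25 had 1 to 3 counts over both. For the first kind, the fold change is given as a lower bound against a floor of 3 counts over the 2 control libraries, which is 0.656 CPM, and the fitted log2 value depends on the prior count. For the second kind, the ratio of pooled levels is given with an exact 95% interval, and such intervals and floors cover counting error only. Il1a, the cell-associated form of interleukin 1, had 0 counts in both control libraries and 4436 and 4921 counts, or 2235 and 2166 CPM, in the LPS libraries. This was at least 3353-fold higher with LPS. Il1b, the secreted form, had 2 and 1 counts in the control libraries and reached 2923 and 2879.6 CPM, a ratio of 4423 (95% counting interval 1513 to 21451). Lif, a cytokine of the interleukin 6 family that acts through gp130, went from 0 counts to 671 and 699 CPM, at least 1046-fold higher. Irg1 (Acod1), the mitochondrial enzyme that makes itaconate, was already detected at 9.85 and 9.37 CPM and reached 4967 and 4907 CPM (log2 fold change 9.0 ± 0.11, standard error). In RefSeq on GRCm38, these genes lie at chr2:129299609-129310186 (Il1a), chr2:129364569-129371164 (Il1b), chr11:4257568-4272514 (Lif) and chr14:103047012-103056573 (Irg1). In each of these genes the LPS libraries stood far above the controls, with little spread between replicates. Where an adjusted p was too small for the software to represent, as for these genes, none is given.

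The next genes by size included further ligands. Ccl22, a chemokine for CCR4-bearing T cells, had 0 counts in both controls and 145 and 160.2 CPM with LPS, at least 233-fold higher (adjusted p = 2.55e-158). Il6, the acute-phase cytokine, had 0 counts and then 90.2 and 70.9 CPM, at least 122-fold higher (adjusted p = 6.89e-93). Csf3, which encodes G-CSF, had 1 and 0 counts in the controls and 263 and 236 CPM with LPS, a ratio of 1137 (95% counting interval 204 to 44960.3). These intervals are wide because the control counts were few, while the LPS levels themselves were close between replicates. Cxcl2, a neutrophil chemokine, went from 1.71 and 1.34 CPM to 1209.5 and 1125 CPM (log2 fold change 9.52 ± 0.16). Dusp5, a nuclear phosphatase of ERK, went from 0 counts to 58.9 and 48.4 CPM, at least 81.3-fold higher, and Serpinb2, an inhibitor of plasminogen activators, from 0 counts to 46.3 and 47.5 CPM, at least 71.7-fold higher. The remaining 5 of the 15 largest were the chemokine Ccl5, the cytokines Il33 and Il27, the adhesion protein Flrt3 and the zinc finger gene Zfp811, which each had 0 counts in both controls and LPS means between 15.9 and 40.6 CPM. Together the 15 genes took 0.00138% and 0.00117% of the control counts and 1.17% and 1.19% of the LPS counts.

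**Figure D2:**
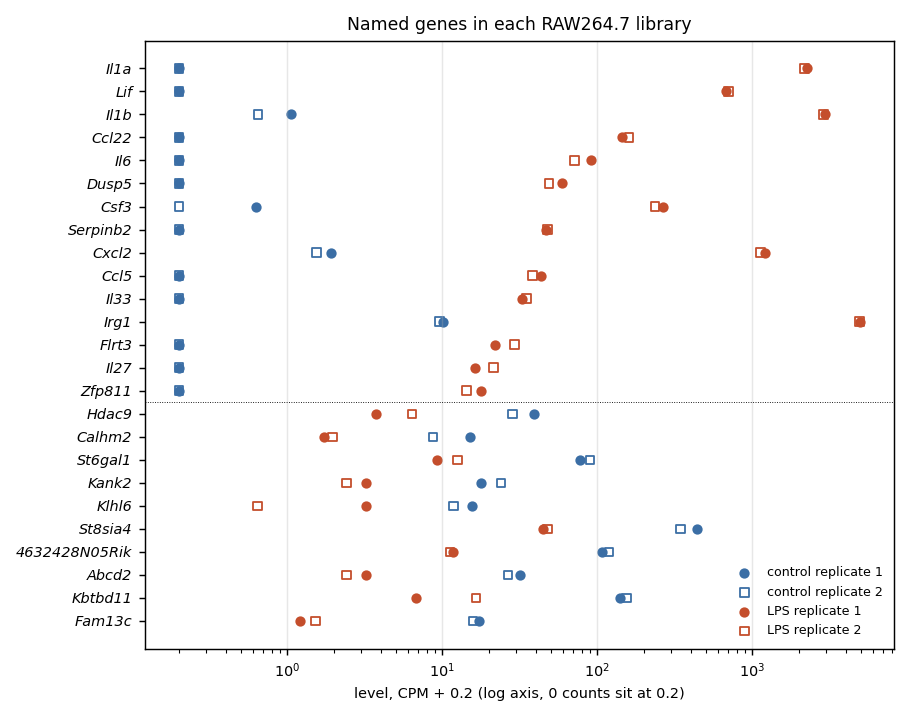
Level of the 15 genes with the largest increases and the 10 with the largest decreases in each of the 4 RAW264.7 libraries, in CPM plus 0.2 on a log axis, with control in blue, LPS in red and replicates 1 and 2 as circles and squares. Groups that do not overlap were a condition for choosing the 25 genes, and 11 of the 15 upper genes sit at 0 counts in both control libraries.

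The promoters of these genes were searched, 250 bases before to 50 bases after the start in RefSeq on GRCm38.p6, for 3 short motifs on both strands. The motifs were a κB motif GGANTTTCC, an interferon-stimulated response element GAAANNGAA and an AP-1 motif TGANTCA. Of the 225 genes past the cutoffs on the higher side, 160 matched an entry, with 205 promoters. Csf3, Ccl5 and Il27 had no entry. A κB motif stood in 7.32% of these promoters, against 1.35% of the 9703 promoters of all genes tested that matched and 0 of the 83 promoters of genes past the cutoffs on the lower side. The interferon motif stood in 11.7%, against 7.19% of all and 8.43% of the lower side. The AP-1 motif stood in 18.0%, against 4.77% of all and 8.43% of the lower side. These shares are descriptions, since genes can hold several listed starts and a match of letters is not a bound site. The promoters of the 3 of the 15 most increased genes that held a κB motif are shown, because NF-κB is the factor the pathway frees first. Capitals mark the κB motif and, in Il6, also the AP-1 motif, and all 3 genes lie on the plus strand. In Irg1 the marked κB stretch fits the motif on the opposite strand, which reads GGAAANTCC as printed.
Il6, chr5:30012864-30013163: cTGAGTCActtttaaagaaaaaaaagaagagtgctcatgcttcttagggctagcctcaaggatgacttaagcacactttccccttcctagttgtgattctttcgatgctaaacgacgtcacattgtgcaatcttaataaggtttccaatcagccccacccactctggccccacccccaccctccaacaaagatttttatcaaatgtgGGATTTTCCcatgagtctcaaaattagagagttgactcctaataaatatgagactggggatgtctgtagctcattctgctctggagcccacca
Cxcl2, chr5:90903649-90903948: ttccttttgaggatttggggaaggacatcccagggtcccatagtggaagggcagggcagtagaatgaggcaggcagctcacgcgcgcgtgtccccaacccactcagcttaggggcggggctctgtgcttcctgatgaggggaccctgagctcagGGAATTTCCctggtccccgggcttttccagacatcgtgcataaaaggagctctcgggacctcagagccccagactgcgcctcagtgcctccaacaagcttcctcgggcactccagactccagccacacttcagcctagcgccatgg
Irg1, chr14:103046762-103047061: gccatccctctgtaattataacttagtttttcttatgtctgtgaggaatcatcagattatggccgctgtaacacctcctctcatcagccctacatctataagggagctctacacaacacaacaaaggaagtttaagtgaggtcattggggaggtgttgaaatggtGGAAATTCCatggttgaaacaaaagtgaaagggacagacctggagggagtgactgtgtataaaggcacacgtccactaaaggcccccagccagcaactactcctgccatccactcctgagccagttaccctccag
The κB motif began 43 bases before the start in Il6, 96 bases before it in Cxcl2 and 85 bases before it in Irg1, and the AP-1 motif of Il6 began 249 bases before the start. None of the 3 held the interferon motif in this window.

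The remaining genes were read in 27 lists of pathway and cell function genes, which hold 121 of the 225 genes on the higher side and 4 of the 78 on the lower side. For each list, the members that rose and fell stand beside the 15.1% and 12.8% of all genes. The lists were chosen with earlier results of these data known, so this is a description and no test of a list. In the values that follow, a call that was lost under an alternative fit is followed by the name of that fit. Total scaling means scaling by total counts alone and, for example, LPS 2 means that the fit left out the second LPS library. Losses with the cutoff as the null hypothesis, which asks whether a change exceeds 2 on the log2 scale, are not marked. These came to 299 over the named genes.

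**Figure D3:**
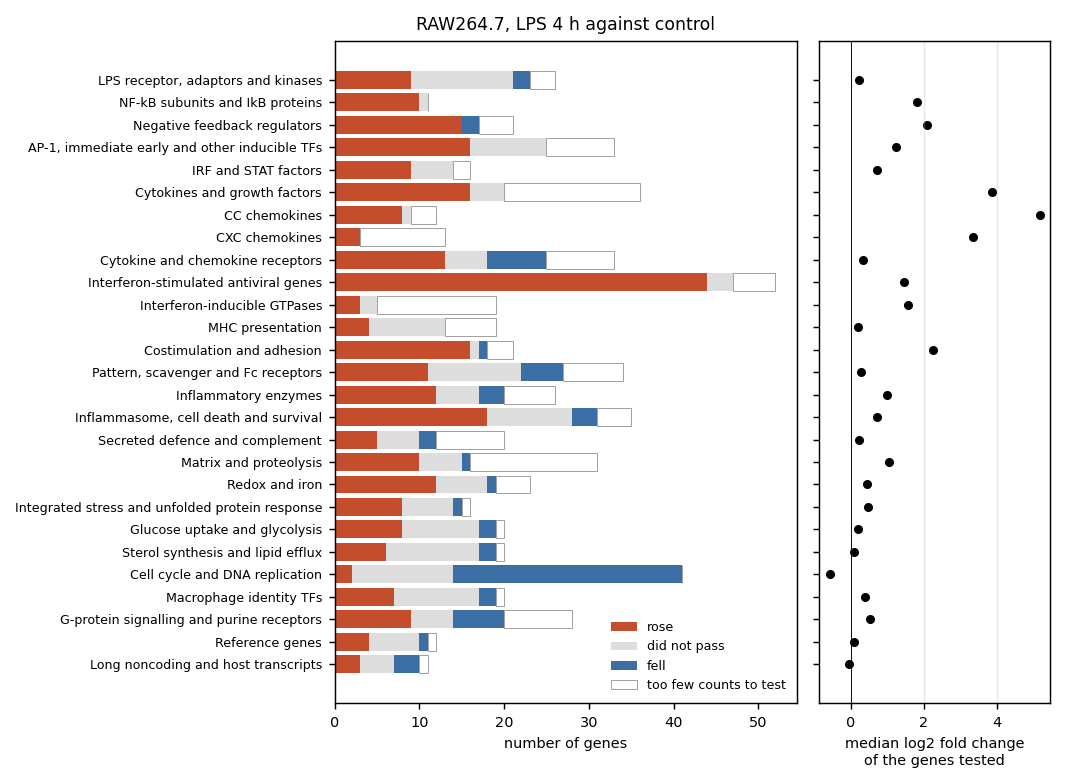
Left, number of genes in each list that rose (red), did not pass (grey), fell (blue) or had too few counts to test (white) with LPS in RAW264.7. Right, median log2 fold change of the members tested, which was highest for CC chemokines (5.18) and lowest for cell cycle and DNA replication genes (-0.59).

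The LPS receptor itself fell while its co-receptor rose. Tlr4, the signalling receptor, fell from 179.8 and 152 CPM in the control libraries to 59.9 and 58.5 CPM in the LPS libraries (log2 fold change -1.49 ± 0.12, adjusted p = 3.21e-33). Cd14, which loads LPS onto the receptor, rose from 1496 and 1490.1 CPM in the control libraries to 4578 and 4261 CPM in the LPS libraries (log2 fold change 1.57 ± 0.06, adjusted p = 1.43e-131), and the groups did not overlap for either gene. Ly96, which encodes MD-2, had too few counts to test, at 4.28 and 4.91 CPM in the controls and 4.53 and 2.64 CPM with LPS. Over the whole signalling list, changes were mixed. Of 23 members tested, 9 rose and 2 fell, with a median log2 fold change of 0.23. With total scaling 6 rose and 5 fell with a median of 0.05, and with DESeq2 6 rose and 2 fell. Ikbke, an IκB kinase-related kinase, rose from 57.4 and 58.9 CPM to 441 and 448 CPM (log2 fold change 2.93 ± 0.10, adjusted p = 7.47e-173), and Ripk2, the kinase of the NOD receptors, rose from 20.1 and 23.2 CPM to 155 and 154 CPM (log2 fold change 2.84 ± 0.15, adjusted p = 1.24e-77). Irak2, a kinase of the Myddosome, rose from 44.96 and 52.7 CPM to 185 and 175 CPM (log2 fold change 1.88 ± 0.12, adjusted p = 1.05e-50). Ticam1, the TRIF adaptor, rose from 26.5 and 24.1 CPM to 50.9 and 58.1 CPM (log2 fold change 1.11 ± 0.17, adjusted p = 2.83e-09), and for Myd88, the other adaptor, the values were 66.8 and 77.7 CPM in the control libraries and 92.7 and 114 CPM with LPS (log2 fold change 0.52 ± 0.13, adjusted p = 0.000207, call lost with DESeq2, with total scaling, in the 25-library fit, without control 1 or LPS 2). Traf6, Map3k7, Tbk1, Chuk and Irak1 did not pass, with log2 fold changes between -0.12 and 0.19.

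Genes of NF-κB and its inhibitors rose as a group, apart from Rela. Of 11 members tested, 10 rose and 0 fell, with a median log2 fold change of 1.79, the highest being that of Nfkbiz. By DESeq2, 8 rose and 0 fell. Nfkbiz, a nuclear IκB protein needed for secondary NF-κB targets, rose from 16.3 and 15.6 CPM in the control libraries to 618 and 610.4 CPM with LPS (log2 fold change 5.26 ± 0.12). Nfkbia, the IκBα inhibitor, rose from 94.2 and 96.8 CPM to 565 and 575 CPM (log2 fold change 2.58 ± 0.09, adjusted p = 1.32e-167). Nfkb1, the p105 and p50 subunit gene, rose from 80.9 and 88.4 CPM to 435 and 435 CPM (log2 fold change 2.36 ± 0.10, adjusted p = 8.13e-128), and Nfkb2, the p100 and p52 gene, rose from 17.1 and 24.5 CPM to 92.7 and 98.1 CPM (log2 fold change 2.20 ± 0.16, adjusted p = 1.39e-38). For Rela, the p65 subunit, the values were 16.3 and 8.93 CPM in the control libraries and 14.1 and 9.68 CPM with LPS (log2 fold change -0.11 ± 0.30, adjusted p = 0.819), and the groups overlapped.

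Feedback regulators followed the same direction. Of 17 members tested, 15 rose and 2 fell, with a median log2 fold change of 2.08, and 9 were past the cutoffs. By DESeq2, 13 rose and 1 fell. Tnfaip3, the A20 deubiquitinase, rose from 12.4 and 16.96 CPM to 160.2 and 157 CPM (log2 fold change 3.43 ± 0.16, adjusted p = 2.76e-97). Socs3, an inhibitor of gp130 receptor signalling, rose from 8.14 and 7.59 CPM to 146 and 164 CPM (log2 fold change 4.29 ± 0.18, adjusted p = 1.55e-116), and Zc3h12a, the ribonuclease Regnase-1 that degrades cytokine mRNAs, rose from 6.42 and 14.7 CPM to 92.2 and 97.3 CPM (log2 fold change 3.17 ± 0.19, adjusted p = 1.9e-59). Peli1, a ubiquitin ligase of the pathway, rose from 34.7 and 31.2 CPM to 299.7 and 310.3 CPM (log2 fold change 3.21 ± 0.12, adjusted p = 1.52e-151). Among dual-specificity phosphatases of MAP kinases, Dusp2 rose from 5.14 and 6.25 CPM to 67.5 and 69.98 CPM (log2 fold change 3.58 ± 0.23, adjusted p = 2.74e-52) and Dusp1 rose from 10.3 and 8.93 CPM to 27.7 and 24.2 CPM (log2 fold change 1.42 ± 0.26, adjusted p = 7.0e-07). The 2 members that fell were Cyld, a deubiquitinase (31.7 and 36.6 CPM against 19.6 and 19.8 CPM, log2 fold change -0.79 ± 0.21, adjusted p = 0.000694, call lost with DESeq2, without control 2 or LPS 1 or LPS 2), and Zfp36l1, an mRNA-decay factor (18.8 and 15.2 CPM against 5.54 and 3.96 CPM, log2 fold change -1.85 ± 0.35, adjusted p = 8.87e-07). Socs1 had too few counts to test, with 1 and 0 counts in the controls and 5 and 5 with LPS.

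Inducible transcription factors were unevenly affected. Of 25 members tested, 16 rose and 0 fell, with a median log2 fold change of 1.23. Among AP-1 members, Junb rose from 178 and 158 CPM to 933 and 816 CPM (log2 fold change 2.38 ± 0.08, adjusted p = 1.05e-185) and Fosl1 rose from 3.85 and 3.57 CPM to 30.7 and 30.4 CPM (log2 fold change 3.02 ± 0.32, adjusted p = 3.8e-20), whereas Fos and Jun did not pass, with log2 fold changes of 0.28 and -0.05. Cebpd, a C/EBP factor of the acute phase, rose from 14.99 and 22.3 CPM to 174 and 143 CPM (log2 fold change 3.08 ± 0.15, adjusted p = 1.35e-86). Ier3, an early response gene, rose from 5.99 and 7.59 CPM to 116 and 103 CPM (log2 fold change 4.0 ± 0.20, adjusted p = 6.92e-83), and Ets2 rose from 82.2 and 92.8 CPM to 377 and 429 CPM (log2 fold change 2.21 ± 0.10, adjusted p = 7.24e-111). Myc, the growth-promoting factor, had 0 and 2 counts in the controls and 41 and 53 counts, or 20.7 and 23.3 CPM, with LPS, a ratio of 50.5 (95% counting interval 13.6 to 423). The early genes Egr1 and Nr4a1 did not pass, at log2 fold changes of -1.36 and 1.17.

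Among the interferon regulatory factors and STATs, Irf7 rose most and Irf1 did not pass. Of 14 members tested, 9 rose and 0 fell, with a median log2 fold change of 0.71. With total scaling and with DESeq2, 6 rose and 0 fell. Irf7, which amplifies type I interferon, rose from 24.4 and 31.7 CPM in the control libraries to 123 and 119 CPM in the LPS libraries (log2 fold change 2.11 ± 0.15, adjusted p = 4.16e-44) and was the only member of the list past the cutoffs. Stat2 rose from 18.8 and 19.2 CPM to 48.4 and 43.6 CPM (log2 fold change 1.27 ± 0.19, adjusted p = 6.38e-10), and Irf9, its DNA-binding partner, rose from 55.2 and 66.5 CPM to 138 and 142 CPM (log2 fold change 1.20 ± 0.12, adjusted p = 5.51e-21). For Irf1, a target of IFN-γ and NF-κB, the values were 27.8 and 24.5 CPM in the control libraries and 30.7 and 27.7 CPM with LPS (log2 fold change 0.15 ± 0.20, adjusted p = 0.591), and the groups overlapped. Irf3, the factor that TBK1 activates, likewise did not pass (log2 fold change 0.14 ± 0.17, adjusted p = 0.572).

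Cytokine genes rose by large amounts. Of 20 members tested, 16 rose and 0 fell, with a median log2 fold change of 3.86, and 13 were past the cutoffs. Tnf, the early inflammatory cytokine, rose from 70.7 and 89.7 CPM in the control libraries to 1797 and 1782 CPM with LPS (log2 fold change 4.48 ± 0.09). Il1rn, the antagonist of interleukin 1, rose from 51.4 and 49.5 CPM to 924 and 829 CPM (log2 fold change 4.12 ± 0.10). Osm, a gp130 cytokine like Lif, rose from 10.3 and 8.93 CPM to 146 and 159.8 CPM (log2 fold change 3.98 ± 0.18, adjusted p = 1.92e-108). Csf2, which encodes GM-CSF, rose from 0 and 1.79 CPM to 51.9 and 53.7 CPM (log2 fold change 5.83 ± 0.36, adjusted p = 9.92e-56). Growth factors also rose, among them Pdgfb (17.1 and 21.4 CPM against 246 and 267 CPM, log2 fold change 3.73 ± 0.14, adjusted p = 1.08e-155), Vegfa (21.4 and 22.8 CPM against 93.2 and 116 CPM, log2 fold change 2.25 ± 0.16, adjusted p = 7.23e-43) and Tgfb1 (16.3 and 20.5 CPM against 54.4 and 51.1 CPM, log2 fold change 1.52 ± 0.19, adjusted p = 1.62e-14). All 7 of these genes were higher in both LPS libraries than in both controls. The interleukin 12 subunit genes Il12a and Il12b were at 0 counts in all 4 libraries. Il10, the anti-inflammatory cytokine, had 1 and 0 counts in the controls and 1 and 0 with LPS, and Ifnb1, the interferon β gene, had 0 counts in both controls and 6 and 2 with LPS, at least 2.87-fold higher against the floor and too few to test. At the depth of these libraries, 0 counts in both libraries of a group allow a level of up to 0.656 CPM in the controls and 0.705 CPM with LPS.

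Of 9 CC chemokines tested, 8 rose and all 8 were past the cutoffs, with a median log2 fold change of 5.18 over the 9. Ccl2, which attracts monocytes, rose from 99.8 and 74.98 CPM to 2433 and 2253 CPM (log2 fold change 4.74 ± 0.08). Ccl3, which attracts monocytes and T cells, rose from 44.1 and 39.3 CPM to 1526 and 1481 CPM (log2 fold change 5.17 ± 0.10), and the related Ccl4 from 23.98 and 31.7 CPM to 1338 and 1191 CPM (log2 fold change 5.51 ± 0.10). Ccl9 was already the highest of them in the controls and rose from 851 and 885 CPM to 4019 and 3886 CPM (log2 fold change 2.19 ± 0.07, adjusted p = 3.21e-237). Ccl7 rose from 0.428 and 1.79 CPM to 191 and 171 CPM (log2 fold change 7.30 ± 0.26, adjusted p = 1.04e-171), and Ccl6 did not pass (log2 fold change 0.60 ± 0.27, adjusted p = 0.0596). The CXC family was narrower, with 3 of 13 genes tested. Besides Cxcl2, Cxcl16 rose from 26.5 and 31.2 CPM to 88.2 and 72.6 CPM (log2 fold change 1.47 ± 0.16, adjusted p = 6.69e-19), and Cxcl10, an interferon-induced T cell chemokine, rose from 0.856 and 2.23 CPM to 14.1 and 18.04 CPM (log2 fold change 3.36 ± 0.45, adjusted p = 1.18e-12). Cxcl1, Cxcl5 and Cxcl9 were at 0 counts in all 4 libraries.

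Receptors for these ligands moved in both directions. Of 25 members tested, 13 rose and 7 fell, with a median log2 fold change of 0.34, while 8 rose and 3 fell with DESeq2. Tnfrsf1b, the TNF receptor 2 gene, rose from 21.8 and 21.4 CPM in the control libraries to 319 and 349 CPM in the LPS libraries (log2 fold change 3.95 ± 0.13, adjusted p = 1.33e-199). Ccr1 rose from 4.28 and 5.80 CPM to 33.8 and 45.3 CPM (log2 fold change 2.97 ± 0.27, adjusted p = 9.73e-26), and Il10ra, the ligand-binding chain for interleukin 10, rose from 52.7 and 51.3 CPM to 174 and 169.9 CPM (log2 fold change 1.72 ± 0.12, adjusted p = 3.59e-43). Il6st, which encodes gp130, fell from 93.3 and 82.1 CPM to 48.4 and 47.5 CPM (log2 fold change -0.87 ± 0.14, adjusted p = 8.29e-09), and Ifngr1, the ligand-binding chain of the IFN-γ receptor, fell from 53.95 and 48.6 CPM to 24.7 and 23.8 CPM (log2 fold change -1.08 ± 0.18, adjusted p = 1.74e-08). Csf1r, the M-CSF receptor that maintains macrophages, fell from 427 and 476 CPM to 311 and 373 CPM (log2 fold change -0.40 ± 0.08, adjusted p = 2.85e-06, call lost without LPS 1). Among pattern, scavenger and Fc receptors, 11 of 27 tested rose and 5 fell, with a median log2 fold change of 0.27, and 9 rose and 3 fell with DESeq2. Clec4e, the Mincle lectin, rose from 175 and 161 CPM to 1126 and 1150.0 CPM (log2 fold change 2.76 ± 0.08, adjusted p = 8.13e-259), Tlr2 rose from 332 and 359.7 CPM to 784 and 920.3 CPM (log2 fold change 1.30 ± 0.07, adjusted p = 3.17e-68), and Nod2 rose from 11.6 and 7.59 CPM to 69.01 and 59.4 CPM (log2 fold change 2.73 ± 0.21, adjusted p = 4.12e-37). The endosomal RNA receptors Tlr7 and Tlr13 fell, Tlr7 from 340.0 and 302 CPM to 180.3 and 144 CPM (log2 fold change -0.99 ± 0.09, adjusted p = 3.39e-26) and Tlr13 from 207 and 195 CPM to 55.4 and 55.01 CPM (log2 fold change -1.86 ± 0.12, adjusted p = 4.51e-54). Fcgr1, the high-affinity IgG receptor, fell from 197 and 197 CPM to 82.6 and 84.5 CPM (log2 fold change -1.24 ± 0.11, adjusted p = 3.38e-28), and the scavenger receptor Cd36 had a log2 fold change of 0.00 ± 0.06 at 2227 and 2000.2 CPM and 2131 and 2107 CPM.

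Interferon-stimulated antiviral genes rose broadly and mostly by modest amounts. Of 47 members tested, 44 rose and 0 fell, with a median log2 fold change of 1.45, and 16 were past the cutoffs. With total scaling, 37 rose and 0 fell, and with DESeq2 34 rose and 0 fell. Oasl1, a regulator of Irf7 translation, rose from 25.3 and 25.4 CPM to 741 and 819.9 CPM (log2 fold change 4.94 ± 0.11). Ifit1, which binds foreign RNA caps, rose from 2.57 and 1.34 CPM to 78.1 and 82.7 CPM (log2 fold change 5.32 ± 0.28, adjusted p = 7.64e-79), and Isg15, the ubiquitin-like modifier, rose from 4.71 and 1.79 CPM to 94.2 and 85.4 CPM (log2 fold change 4.75 ± 0.25, adjusted p = 2.3e-80). Usp18, the protease that removes it, rose from 23.98 and 23.2 CPM to 195 and 191 CPM (log2 fold change 3.03 ± 0.14, adjusted p = 1.16e-99). At the lower end of the list, Ifit2 was at 13.3 and 12.9 CPM in the control libraries and 27.7 and 20.7 CPM with LPS (log2 fold change 0.87 ± 0.25, adjusted p = 0.00225, call lost with DESeq2, with total scaling, without control 1 or control 2 or LPS 1). The RNA sensor Ifih1 (MDA5) rose from 8.99 and 5.80 CPM to 79.1 and 87.1 CPM (log2 fold change 3.48 ± 0.21, adjusted p = 3.86e-59). Oas1a and Oas1g also rose, at log2 fold changes of 0.79 and 0.95, but these copies are near-identical and the counting may divide reads between them. The call for Oas1g was lost with DESeq2 and without LPS 2.

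The interferon-inducible GTPases, which attack the vacuoles of pathogens, mostly had too few counts to test in this line. Of 19 genes, 14 were not tested, and 3 of the other 5 rose: Irgm1 from 51.8 and 44.2 CPM to 215 and 200.2 CPM (log2 fold change 2.11 ± 0.12, adjusted p = 1.29e-66), Irgm2 from 8.14 and 9.37 CPM to 44.8 and 42.3 CPM (log2 fold change 2.31 ± 0.24, adjusted p = 3.25e-21) and Igtp from 14.99 and 8.93 CPM to 34.3 and 36.97 CPM (log2 fold change 1.57 ± 0.23, adjusted p = 1.47e-10). Gbp2 had 1 and 0 counts in the controls and 4 and 4 with LPS. Antigen presentation genes moved little. Of 13 tested, 4 rose and 0 fell, with a median log2 fold change of 0.18, but with total scaling 1 rose and the median was -0.00109. By DESeq2, 2 rose and 0 fell. H2-K1, a class I heavy chain, was at 455 and 479 CPM in the control libraries and 608 and 592 CPM with LPS (log2 fold change 0.36 ± 0.07, adjusted p = 6.05e-06, call lost with total scaling). Tap1, the peptide transporter, was at 50.5 and 41.1 CPM in the control libraries and 42.3 and 54.6 CPM with LPS (log2 fold change 0.09 ± 0.16, adjusted p = 0.707). The class II genes H2-Aa, H2-Ab1 and H2-Eb1 and their activator Ciita were at 0 counts in all 4 libraries, whereas Cd74, the invariant chain, was at 376 and 355 CPM in the control libraries and 377 and 402 CPM with LPS (log2 fold change 0.09 ± 0.08, adjusted p = 0.382).

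Surface molecules for T cells and adhesion rose, with 1 opposite case at a high level. Of 18 members tested, 16 rose and 1 fell, with a median log2 fold change of 2.25, and 11 were past the cutoffs. Cd40, the receptor for T cell help, rose from 4.71 and 2.23 CPM in the control libraries to 108 and 112 CPM in the LPS libraries (log2 fold change 4.96 ± 0.23, adjusted p = 2.74e-97). Cd83 rose from 29.1 and 27.2 CPM to 282 and 276 CPM (log2 fold change 3.30 ± 0.13, adjusted p = 1.33e-146), Cd80 rose from 21.8 and 12.9 CPM to 84.6 and 92.9 CPM (log2 fold change 2.34 ± 0.17, adjusted p = 9.7e-40), and Cd86 rose from 26.98 and 26.8 CPM to 56.9 and 52.4 CPM (log2 fold change 1.02 ± 0.17, adjusted p = 3.91e-08). Sdc4, a heparan sulfate syndecan, rose from 259 and 249 CPM to 1709 and 1649 CPM (log2 fold change 2.72 ± 0.07, adjusted p = 3.42e-287), and Icam1, the ligand of LFA-1, rose from 86.5 and 89.7 CPM to 349 and 359 CPM (log2 fold change 2.01 ± 0.10, adjusted p = 2.73e-89). Integrin chains parted, since Itga5, the fibronectin receptor chain, rose from 42.4 and 58.9 CPM to 431 and 499.5 CPM (log2 fold change 3.20 ± 0.10, adjusted p = 8.27e-197), while Itga4, the VLA-4 chain, fell from 1542 and 1369.7 CPM to 469 and 507 CPM (log2 fold change -1.58 ± 0.07, adjusted p = 9.95e-112). Both LPS libraries of Itga4 were far below both controls.

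Enzymes of inflammation behaved selectively. Of 20 members tested, 12 rose and 3 fell, with a median log2 fold change of 0.97. Ptgs2, the inducible cyclooxygenase, rose from 41.5 and 31.7 CPM to 2893 and 2705 CPM (log2 fold change 6.25 ± 0.09), while its constitutive counterpart Ptgs1 fell from 108 and 116 CPM to 32.7 and 46.7 CPM (log2 fold change -1.48 ± 0.14, adjusted p = 2.84e-24). Odc1, the first enzyme of polyamine synthesis, rose from 389 and 425 CPM to 3943 and 4235 CPM (log2 fold change 3.33 ± 0.07). Hdc, which makes histamine, had 2 and 0 counts in the controls and 51.4 and 56.3 CPM with LPS, a ratio of 124 (95% counting interval 33.8 to 1027). Nos2, the inducible nitric oxide synthase, had 1 and 0 counts in the controls and 18 and 15 with LPS, a ratio of 35.5 (95% counting interval 5.94 to 1443). Its adjusted p was 5.24e-09, and the call was lost with DESeq2 and in the 25-library fit. Its LPS level of 9.07 and 6.60 CPM stayed low, and arginase 1 (Arg1) had 1 count over the 4 libraries. Of the NADPH oxidase genes, Cybb rose from 584 and 548 CPM to 927 and 925 CPM (log2 fold change 0.71 ± 0.07, adjusted p = 4.32e-23), while Ncf1 was at 95.9 and 99.5 CPM in the control libraries and 66.5 and 71.3 CPM with LPS (log2 fold change -0.50 ± 0.13, adjusted p = 0.000535, call lost with DESeq2, in the 25-library fit, without LPS 1).

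Survival genes rose together with the inflammasome sensor. Of 31 members tested, 18 rose and 3 fell, with a median log2 fold change of 0.72, while 14 rose and 0 fell with DESeq2. Nlrp3 rose from 31.7 and 31.7 CPM to 294 and 302 CPM (log2 fold change 3.23 ± 0.12, adjusted p = 2.33e-150). The BCL2 relatives Bcl2l1 and Mcl1, which block apoptosis, rose, Bcl2l1 from 6.85 and 8.03 CPM to 51.4 and 44.9 CPM (log2 fold change 2.68 ± 0.24, adjusted p = 7.45e-28) and Mcl1 from 572 and 571 CPM to 1039 and 1027 CPM (log2 fold change 0.85 ± 0.07, adjusted p = 1.3e-33). The copies Bcl2a1a, Bcl2a1b and Bcl2a1d rose with log2 fold changes of 4.37, 2.90 and 2.49, and since they are near-identical the share of each is uncertain. Traf1, an adaptor of TNF receptors, rose from 13.7 and 18.3 CPM to 294 and 291 CPM (log2 fold change 4.19 ± 0.14, adjusted p = 1.23e-190), and Cflar, the caspase 8 inhibitor cFLIP, rose from 49.7 and 51.3 CPM to 158 and 151 CPM (log2 fold change 1.61 ± 0.13, adjusted p = 1.26e-35). Casp1 was at 60.4 and 45.5 CPM in the control libraries and 35.3 and 37.4 CPM with LPS (log2 fold change -0.54 ± 0.16, adjusted p = 0.00376, call lost with DESeq2, in the 25-library fit, without control 1 or LPS 1 or LPS 2). Casp4, the gene of the sensor of cytosolic LPS, rose from 20.6 and 14.3 CPM to 39.8 and 36.97 CPM (log2 fold change 1.13 ± 0.21, adjusted p = 3.75e-07), and Cdkn1a, the p21 inhibitor of cyclin-dependent kinases, rose from 101 and 106 CPM to 226 and 228 CPM (log2 fold change 1.13 ± 0.10, adjusted p = 5.95e-27). The inflammasome adaptor Pycard was listed with 0 counts in the 4 RAW264.7 libraries.

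Among genes of matrix and proteolysis, protease inhibitors, the urokinase receptor and a gelatinase were among those that rose. Of 16 members tested, 10 rose and 1 fell, with a median log2 fold change of 1.04, and 15 of 31 members had too few counts to test. Plaur, the urokinase receptor, rose from 61.7 and 52.7 CPM to 842 and 879 CPM (log2 fold change 3.91 ± 0.10). Timp1, an inhibitor of metalloproteinases, rose from 4.71 and 2.23 CPM to 118 and 103 CPM (log2 fold change 4.96 ± 0.23, adjusted p = 1.91e-97), and Mmp9, a gelatinase, went from 0 counts to 30 and 27 counts, at least 20.4-fold higher. Spp1, which encodes osteopontin, rose from 2483 and 2158 CPM to 6509 and 5994 CPM (log2 fold change 1.43 ± 0.06, adjusted p = 1.41e-111). The lysosomal proteases Ctsb and Ctsl did not pass (log2 fold changes 0.08 and 0.23). Among 12 secreted defence and complement genes tested, 5 rose and 2 fell, with a median log2 fold change of 0.21. C5ar1, the receptor of the anaphylatoxin C5a, rose from 138 and 122 CPM to 509 and 499 CPM (log2 fold change 1.95 ± 0.09, adjusted p = 2.49e-104). Lyz2 was at 7965 and 8037 CPM in the control libraries and 7517 and 7132 CPM with LPS (log2 fold change -0.13 ± 0.06, adjusted p = 0.0897).

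Of 19 redox and iron genes tested, 12 rose and 1 fell, with a median log2 fold change of 0.44, while 8 rose and 4 fell with total scaling and 8 rose and 0 fell with DESeq2. Slc7a11, the cystine transporter, rose from 32.97 and 29.01 CPM to 515 and 577 CPM (log2 fold change 4.14 ± 0.11, adjusted p = 4.75e-285), and Slc11a2, an iron transporter, rose from 59.5 and 72.3 CPM to 255 and 273 CPM (log2 fold change 2.0 ± 0.11, adjusted p = 2.54e-74). Hmox1, which degrades haem, was at 14.99 and 13.8 CPM in the control libraries and 22.7 and 29.05 CPM with LPS (log2 fold change 0.85 ± 0.24, adjusted p = 0.00173, call lost with DESeq2, with total scaling, without control 2 or LPS 2), and Nfe2l2, the NRF2 gene, had a log2 fold change of -0.01 ± 0.12. Of 15 stress response genes tested, 8 rose and 1 fell, while 5 rose with total scaling and 4 with DESeq2. Herpud1, of the endoplasmic reticulum degradation machinery, rose from 186 and 189 CPM to 565 and 561 CPM (log2 fold change 1.58 ± 0.08, adjusted p = 4.19e-79), the chaperone Hspa5 (BiP) rose from 1851 and 1744 CPM to 2871 and 2843 CPM (log2 fold change 0.67 ± 0.06, adjusted p = 2.12e-25), and Ddit3 (CHOP) did not pass (log2 fold change -0.32 ± 0.39). Of 19 genes of glucose uptake and glycolysis tested, 8 rose and 2 fell with a median of 0.20, while 4 rose and 3 fell with total scaling and 4 rose and 0 fell with DESeq2. Slc2a1, the glucose transporter GLUT1, rose from 47.1 and 49.98 CPM to 247 and 256 CPM (log2 fold change 2.37 ± 0.12, adjusted p = 3.42e-91), and Slc16a3, which exports lactate, rose from 278 and 299.9 CPM to 467 and 498 CPM (log2 fold change 0.74 ± 0.08, adjusted p = 2.45e-19). The enzymes between them, Gpi1, Tpi1, Pgam1 and Pkm, did not pass, with log2 fold changes of -0.08 to 0.18.

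Of 19 genes of sterol synthesis and lipid efflux tested, 6 rose and 2 fell, while 3 rose and 2 fell with total scaling and 3 rose and 1 fell with DESeq2. The median log2 fold change was 0.09, and it turned to -0.09 with total scaling. Scd2, a fatty acid desaturase, fell from 132 and 132 CPM to 56.9 and 51.5 CPM (log2 fold change -1.29 ± 0.13, adjusted p = 3.6e-22). Abca1, the cholesterol efflux pump, had 2 and 1 counts in the controls and 26 and 44 with LPS, a ratio of 25.1 (95% counting interval 8.24 to 125). Apoe, the lipid carrier that macrophages usually make in quantity, was low in both groups, at 5.14 and 8.48 CPM in the control libraries and 5.04 and 5.28 CPM with LPS (log2 fold change -0.39 ± 0.41, adjusted p = 0.495).

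Cell cycle genes were the list with the most decreases, reaching a log2 fold change of -2.38 for E2f8, an E2F repressor. Of 41 members tested, 2 rose and 27 fell, with a median log2 fold change of -0.59. With total scaling 1 rose and 30 fell, and with DESeq2 1 rose and 19 fell. Ccne2, a cyclin of S phase entry, fell from 152 and 146 CPM in the control libraries to 39.8 and 33.9 CPM in the LPS libraries (log2 fold change -2.02 ± 0.14, adjusted p = 9.25e-48), and Ccne1 fell from 49.2 and 45.1 CPM to 10.1 and 15.8 CPM (log2 fold change -1.84 ± 0.21, adjusted p = 4.16e-17). Cdc6, which loads the replicative helicase, fell from 108 and 118 CPM to 38.3 and 39.6 CPM (log2 fold change -1.53 ± 0.14, adjusted p = 6.16e-26). The helicase subunits Mcm2, Mcm4, Mcm5, Mcm6 and Mcm7 fell, with log2 fold changes between -1.02 and -0.63, and Mcm3 did not pass (adjusted p = 0.0285). Pcna, the polymerase clamp, fell from 397 and 347 CPM to 209 and 223 CPM (log2 fold change -0.79 ± 0.09, adjusted p = 8.29e-19), and E2f2 fell from 44.1 and 49.5 CPM to 13.6 and 13.6 CPM (log2 fold change -1.78 ± 0.21, adjusted p = 3.66e-16). The call for Mcm4 was lost with DESeq2. By contrast, the mitotic genes Ccnb1, Cdc20, Aurka, Cdk1 and Plk1 did not pass. For Ccnb1, the mitotic cyclin, the values were 170.4 and 164 CPM in the control libraries and 171 and 166 CPM with LPS (log2 fold change 0.01 ± 0.10, adjusted p = 0.955), and for Cdk1, its kinase, they were 247 and 220.5 CPM in the control libraries and 270.0 and 250.4 CPM with LPS (log2 fold change 0.15 ± 0.09, adjusted p = 0.167). Other mitotic genes did fall, among them Bub1 (298 and 245 CPM against 168 and 172 CPM, log2 fold change -0.67 ± 0.09, adjusted p = 3.79e-12), Kif11 (265 and 254 CPM against 149 and 143 CPM, log2 fold change -0.83 ± 0.09, adjusted p = 5.8e-17) and Aurkb (50.96 and 59.8 CPM against 28.2 and 29.9 CPM, log2 fold change -0.92 ± 0.17, adjusted p = 5.28e-07), so genes of both phases fell. The kinase inhibitors Cdkn1b (p27) and Cdkn2c (p18), which restrain the cycle, fell too, with log2 fold changes of -1.01 and -0.71. The 2 members that rose were Cdk6, a G1 kinase, from 45.4 and 49.5 CPM to 110.3 and 124 CPM (log2 fold change 1.31 ± 0.13, adjusted p = 5.51e-21), and cyclin D1, Ccnd1, from 244 and 281 CPM to 325 and 332 CPM (log2 fold change 0.33 ± 0.08, adjusted p = 0.000505, call lost with DESeq2, with total scaling, in the 25-library fit, without control 1 or LPS 2).

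**Figure D4:**
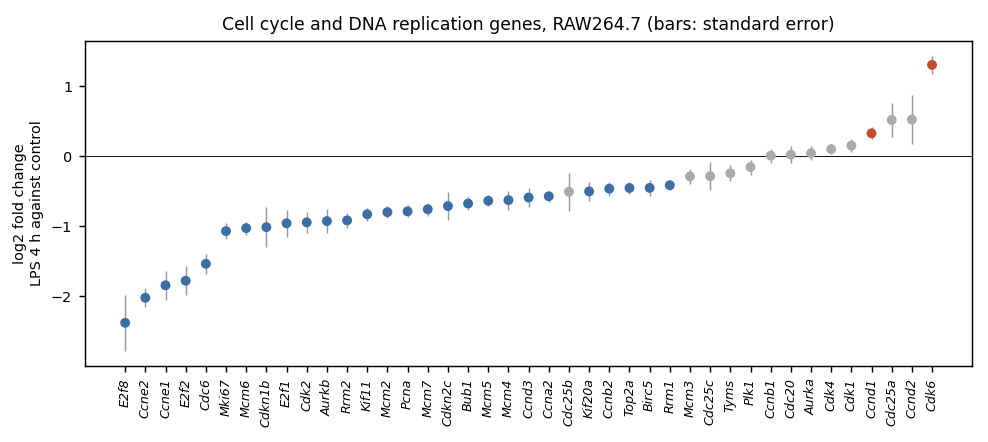
Log2 fold change (LPS 4 h against control) of the 41 genes of the cell cycle list in RAW264.7, in order of size, with bars of 1 standard error, blue for genes that fell, red for genes that rose and grey for genes that did not pass. The values run from -2.38 for E2f8 to 1.31 for Cdk6, and most replication genes lie on the left.

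Further S phase genes stood among the 78 past the cutoffs on the lower side, and were named after their values were seen. Dtl, a subunit of the replication-coupled ubiquitin ligase, fell from 130.2 and 133 CPM to 30.7 and 23.8 CPM (log2 fold change -2.28 ± 0.15, adjusted p = 4.68e-51), and Tk1, the thymidine kinase, fell from 220.1 and 270.4 CPM to 54.9 and 57.7 CPM (log2 fold change -2.12 ± 0.11, adjusted p = 2.58e-75). Ung, which removes uracil from DNA, fell from 30.4 and 26.8 CPM to 6.55 and 3.08 CPM (log2 fold change -2.59 ± 0.31, adjusted p = 7.65e-16), and Esco2, a cohesin acetyltransferase of S phase, fell from 42.8 and 27.2 CPM to 6.05 and 6.60 CPM (log2 fold change -2.46 ± 0.27, adjusted p = 2.81e-18). All 4 had LPS libraries below both controls, and none was a member of the list above.

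Transcription factors that define macrophages changed in part. Of 19 members tested, 7 rose and 2 fell, with a median log2 fold change of 0.39. Spi1, the PU.1 factor of the lineage, rose from 170.0 and 206 CPM to 424 and 420.3 CPM (log2 fold change 1.17 ± 0.09, adjusted p = 1.74e-40). The inhibitors of basic helix-loop-helix factors Id1 and Id3 rose, Id1 from 6.42 and 8.03 CPM to 44.8 and 29.9 CPM (log2 fold change 2.35 ± 0.26, adjusted p = 2.05e-18) and Id3 from 2.14 and 1.79 CPM to 13.6 and 10.6 CPM (log2 fold change 2.57 ± 0.45, adjusted p = 1.3e-07). Mef2c fell from 141 and 132 CPM to 47.4 and 43.6 CPM (log2 fold change -1.59 ± 0.13, adjusted p = 1.6e-31), and Bach1, a haem-regulated repressor, fell from 95.5 and 92.4 CPM to 42.8 and 40.05 CPM (log2 fold change -1.18 ± 0.14, adjusted p = 4.9e-15). Cebpa did not pass (log2 fold change -0.14 ± 0.16, adjusted p = 0.526).

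Among G-protein signalling genes, 9 of 20 tested rose and 6 fell. Rgs16, which shortens G-protein signals, rose from 0.856 and 1.34 CPM to 89.2 and 117 CPM (log2 fold change 6.49 ± 0.29, adjusted p = 7.69e-105), and Adora2b, the low-affinity adenosine receptor, rose from 4.28 and 7.14 CPM to 109.8 and 103 CPM (log2 fold change 4.21 ± 0.21, adjusted p = 1.53e-84). Hcar2, the niacin receptor, rose from 1.28 and 4.46 CPM to 46.8 and 40.5 CPM (log2 fold change 3.91 ± 0.30, adjusted p = 5.95e-36). On the other side, Gpr183, the oxysterol receptor EBI2, fell from 174 and 174 CPM to 31.7 and 36.97 CPM (log2 fold change -2.33 ± 0.13, adjusted p = 7.48e-66), Cysltr1, a leukotriene receptor, fell from 62.5 and 53.6 CPM to 15.6 and 16.3 CPM (log2 fold change -1.86 ± 0.19, adjusted p = 1.08e-20), and P2rx7, the ATP-gated channel of inflammasome activation, fell from 41.5 and 53.6 CPM to 15.1 and 20.7 CPM (log2 fold change -1.39 ± 0.19, adjusted p = 1.35e-11). Reference genes often used for normalization had a median log2 fold change of 0.09 over 11 tested, which turned to -0.09 with total scaling. Of these, 4 rose and 1 fell, but 1 rose and 2 fell with total scaling. Actb rose from 5072 and 5584 CPM to 8014 and 8526 CPM (log2 fold change 0.63 ± 0.06, adjusted p = 3.66e-23), whereas Hprt was at 223 and 212 CPM in the control libraries and 216 and 213 CPM with LPS (log2 fold change -0.02 ± 0.09, adjusted p = 0.879).

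Among 10 noncoding and host transcripts tested, 3 rose and 3 fell, while 2 rose and 1 fell with DESeq2. Mir155hg, the host transcript of a microRNA that targets inhibitors of inflammatory signalling, had 2 and 0 counts in the controls and 18 and 32 with LPS, a ratio of 26.9 (95% counting interval 7.06 to 228) at an adjusted p of 2.83e-12. The mature microRNA that it carries is shown with its seed, bases 2 to 8, in capitals, from RefSeq on GRCm38.p6 at chr16:84714143-84714165 on the plus strand.
miR-155-5p: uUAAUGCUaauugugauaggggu
The libraries count the host transcript and do not measure this 23-base RNA. Neat1 and Malat1, long nuclear RNAs, fell, Neat1 from 62.5 and 51.8 CPM to 32.7 and 37.4 CPM (log2 fold change -0.70 ± 0.16, adjusted p = 0.000104, call lost with DESeq2, in the 25-library fit, without control 1 or LPS 1) and Malat1 from 1836 and 1772 CPM to 1270.5 and 1519 CPM (log2 fold change -0.37 ± 0.06, adjusted p = 5.81e-08, call lost in the 25-library fit).

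The largest decreases belonged to genes outside the lists. Kbtbd11, a Kelch-repeat protein, fell from 139.6 and 154 CPM in the control libraries to 6.55 and 16.3 CPM in the LPS libraries (log2 fold change -3.64 ± 0.17, adjusted p = 3.36e-94). St8sia4, a polysialyltransferase, fell from 439.8 and 343 CPM to 44.3 and 47.5 CPM (log2 fold change -3.09 ± 0.11, adjusted p = 1.66e-166), and St6gal1, which adds α2,6-linked sialic acid to glycoproteins, fell from 76.6 and 89.7 CPM to 9.07 and 12.3 CPM (log2 fold change -2.94 ± 0.20, adjusted p = 2.3e-48). 4632428N05Rik, the symbol for the VISTA checkpoint gene Vsir, fell from 107 and 118 CPM to 11.6 and 11.00 CPM (log2 fold change -3.32 ± 0.18, adjusted p = 9.46e-70). Hdac9, a class IIa histone deacetylase, fell from 38.5 and 28.1 CPM to 3.53 and 6.16 CPM (log2 fold change -2.75 ± 0.29, adjusted p = 1.2e-19), and Abcd2, a peroxisomal transporter, fell from 31.3 and 26.3 CPM to 3.02 and 2.20 CPM (log2 fold change -3.45 ± 0.35, adjusted p = 2.68e-21). Fam13c, Klhl6, Kank2 and Calhm2 completed the 10 largest decreases with a control mean of at least 10 CPM, at log2 fold changes of -3.74, -3.0, -2.96 and -2.80 and LPS means between 1.16 and 2.61 CPM. Groups that do not overlap were a condition for naming these 10, which all 78 genes met. Cd28 had 20 and 14 counts in the controls and 0 in both LPS libraries, at least 10.5-fold lower against the floor of 3 counts over the LPS libraries.

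The study compared the line with BMDMs given LPS without IFN-γ, which were not analysed here. The response of RAW264.7 to LPS was set instead against that of BMDMs to IFN-γ and LPS at 4 h. The difference between the 2 responses was tested in 1 fit of 10 libraries. Cell, mouse strain, medium and IFN-γ differ at once between the arms and cannot be told apart. Levels in this fit are on another TMM scale than those above. Of 10269 genes, the response was more positive in RAW264.7 for 1136 (11.1%) and more negative for 1688 (16.4%), and with a difference of at least 2 on the log2 scale for 378 (3.68%) and 518 (5.04%). With total scaling the median difference over all genes was 0.47 in place of 0.03, the counts became 2429 and 1015, and those with a difference of at least 2 became 669 and 362. Of the 225 genes past the cutoffs on the higher side in RAW264.7, 221 were in this fit. Of these, 149 were past the same cutoffs in BMDMs by the 10-library fit, which is 67.4% of the 221. Over all 10269 genes, 825 were past them on the higher side in BMDMs, and the 149 make up 18.1% of these. For 8 of the 221 the level fell in BMDMs. Of the 78 on the lower side, 69 were in the fit, and 37 were past the cutoffs in BMDMs, 53.6% of the 69. Over all 10269 genes, 726 were past them on the lower side in BMDMs, and the 37 make up 5.10% of these. For 5 of the 69 the level rose in BMDMs.

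Most interferon-stimulated antiviral genes showed a smaller response in RAW264.7. Of 52 antiviral genes in the fit, 0 had a higher and 50 a lower response than in BMDMs, with a median difference of -3.85. MHC presentation genes had 14 of 19 lower and 0 higher (median difference -3.54), interferon-inducible GTPases 8 of 18 lower, IRF and STAT factors 11 of 14 lower (median -1.68) and NF-κB genes 8 of 11 lower (median -2.05). With total scaling the antiviral count was 49, the IRF and STAT count 9, and the other 3 counts were as given. In the line, 6 of the 19 MHC genes and 14 of the 19 listed GTPases had too few counts to test. In each of these 2 lists, 4 genes were at 0 counts in all 4 RAW264.7 libraries. The fitted response of such genes depends on the prior count, and so does the MHC median in part. A GTPase that did not pass may only lack counts in the line. The log2 response of Ifit2 was 0.84 in RAW264.7 and 10.42 in BMDMs (difference -9.58 ± 0.40, adjusted p = 1.27e-50). For Irf1 it was 0.13 in RAW264.7 and 5.68 in BMDMs (difference -5.55 ± 0.24, adjusted p = 1.3e-48), and for Tnf 4.46 in RAW264.7 and 8.61 in BMDMs (difference -4.15 ± 0.17, adjusted p = 8.94e-52). Il12b, Cxcl9 and H2-Aa, at 0 counts in all RAW264.7 libraries, reached means of 3219.7, 1844 and 1557 CPM in stimulated BMDMs, and no fold change can be given for the line.

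Other genes responded more in the line. Lif was at 0.552, 2.25, 1.10 CPM in the 3 control BMDM libraries and at 29.4, 23.3, 16.9 CPM in the stimulated ones, while in RAW264.7 it went from 0 counts to 541 and 563 CPM on the same scale (difference of log2 responses 9.0 ± 1.33, adjusted p = 3.3e-09). For Lif and for Serpinb2, both at 0 counts in the RAW264.7 controls, the fitted response of the line and the size of the difference depend on the prior count and are no bound. Of 29 matrix and proteolysis genes, the response was more positive in RAW264.7 for 12 and more negative for 1, and with total scaling for 13 and 0. A more positive response can also come from a fall in BMDMs, where 9 of the 29 fell. Serpinb2 had log2 responses of 9.23 in RAW264.7 and 2.09 in BMDMs (difference 7.14 ± 0.90, adjusted p = 7.05e-12), and Timp1 of 4.93 in RAW264.7 and 0.79 in BMDMs (difference 4.14 ± 0.32, adjusted p = 1.05e-22). Myc, Osm and Itga4 moved differently in the 2 cells. Myc had only 0 and 2 counts in the RAW264.7 controls, so the size of its response there is uncertain. The log2 response of Myc was 5.40 in RAW264.7 and -1.62 in BMDMs (difference 7.02 ± 0.72, adjusted p = 4.73e-16), that of Osm 3.96 in RAW264.7 and 0.19 in BMDMs (difference 3.77 ± 0.36, adjusted p = 4.97e-18) and that of Itga4 -1.60 in RAW264.7 and 2.63 in BMDMs (difference -4.23 ± 0.13, adjusted p = 4.29e-66). In contrast, the responses of Il1b were 11.93 in RAW264.7 and 11.50 in BMDMs (difference 0.42 ± 0.65, adjusted p = 0.695), a difference smaller than its error.

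**Figure D5:**
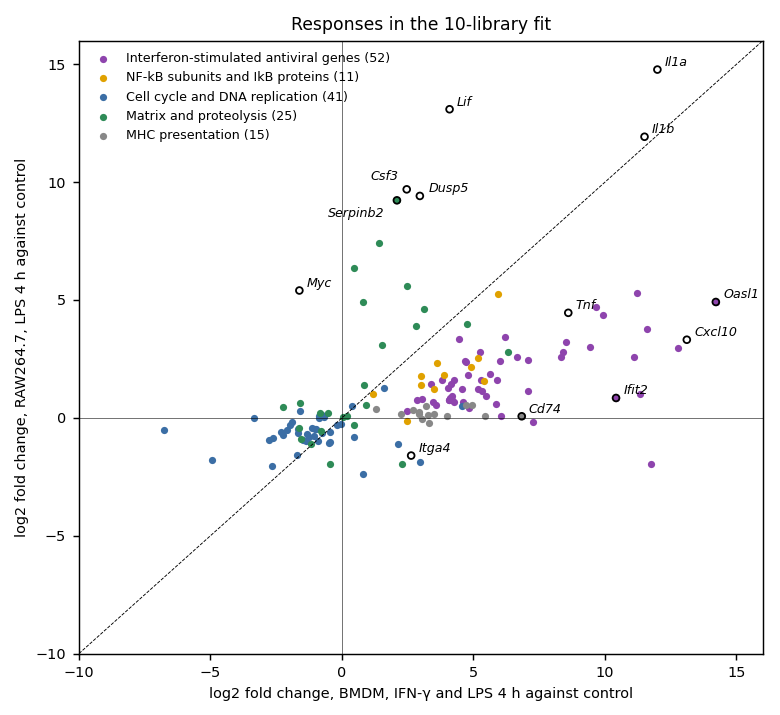
Log2 fold change in RAW264.7 (LPS 4 h against control, vertical axis) against that in BMDMs (IFN-γ and LPS 4 h against control, horizontal axis) in the 10-library fit, for genes of 5 lists with a count in RAW264.7 and 13 labelled genes, with a dashed line of equal response. Nearly all antiviral genes lie below the line, while Lif, Csf3, Dusp5, Serpinb2 and Myc lie above it. In the RAW264.7 controls, Lif, Dusp5 and Serpinb2 had 0 counts, Csf3 had 1 and 0 and Myc had 0 and 2. Their distance above the line thus depends on the prior count.

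Counts on the strand opposite to the annotated gene were examined as a separate measurement. Of 485 genes with enough such counts, 21 (4.33%) had more and 15 (3.09%) fewer with LPS. Gm14023, a transcript annotated on the plus strand across Il1a at chr2:129297370-129307826 in GENCODE M21 on GRCm38, had 0 and 0 antisense counts in the control libraries and 1053 and 1230 in the LPS libraries, while its own sense counts were 0, 0, 2 and 3. These antisense reads lie on the strand of Il1a, whose gene it overlaps, so they and reads of Il1a cannot be told apart.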

How the data were processed

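RNA-seq was carried out by the study on RAW264.7 cells and BMDMs, with ribosomal RNA removal per the extract protocol (the labels name polyA RNA) and a strand-specific library kit. Per the submitters' processing notes, the authors used CASAVA 1.8.2, Trimmomatic 0.33, STAR 2.5.1 and the mm10 genome, and the deposited values are whole-number counts of reads per gene, not normalized, for unstranded, antisense and sense reads. The annotation release is not given in the sources used here. The files hold no comparisons of the authors.

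Sense counts of 24411 gene rows were analysed. Reads assigned to no feature were 62.7% to 64.8% of mapped reads in the RAW264.7 libraries and were left out, as was Rn45s. Groups followed the labels. Genes were kept by filterByExpr, scaled by TMM and tested with edgeR 4.0.16 in R 4.3.3 by the quasi-likelihood test with robust dispersion and Benjamini-Hochberg adjustment over all genes tested, in 4 libraries for the response of the line, and in 10 libraries for the difference between the responses of the line and of BMDMs. Standard errors of log2 fold changes are the fold change divided by the square root of F. Intervals are exact 95% intervals. With 2 libraries against 2, an exact permutation test of a single value cannot go below p = 0.333, so none was run. The scripts were tested on simulated data with 200 changed genes. Alternatives were DESeq2 1.42.0, other scalings and filters, unstranded counts, Rn45s kept, the cutoff as the null hypothesis, a replicate block, all 25 libraries in 1 fit and leaving out each library.

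The genes named are the 15 largest increases and 10 largest decreases past the cutoffs with at least 10 CPM in the higher group, members of 27 gene lists and of the marker lists, the 5 largest differences between responses on each side and the 3 antisense signals with the smallest p. The named increases and decreases also had to show no overlap between groups, which all 225 and 78 genes past the cutoffs did. The members and lists were chosen with earlier results of these data known. Some genes of these lists are not reported here. Symbols are those of the files, where Irg1 is now Acod1.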

Additional observations from a re-analysis of the deposited data

Results flagged for a closer look

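The response to stimulation differed between RAW264.7 (LPS) and BMDMs (IFN-γ and LPS) by the test of the difference itself, with 1136 genes more positive and 1688 more negative in the line. Among genes with at least 10 CPM in a group, the largest positive differences on the log2 scale were those of Lif (9.0), Il16 (8.11), Cd300lb (7.94), Zfp395 (7.72) and Bmf (7.35). Lif rose in both cells and by more in the line, with a size that depends on the prior count because both RAW264.7 controls had 0 counts, whereas the other 4 differed mainly through a fall in BMDMs. Il16, a T cell attractant, had 114 and 108 counts in the RAW264.7 controls and did not pass there (log2 fold change -0.13), while it went to 0 counts in all 3 stimulated BMDM libraries. Cd300lb, an activating myeloid receptor, went in BMDMs from between 458 and 547 counts per library to 1 or 2. Zfp395 and Bmf also went to 0 counts in stimulated BMDMs, so their fitted values depend on the prior count.

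The largest negative differences were those of Tgtp2 (-14.51), Ifi205 (-13.68), Gfi1 (-12.34), Tnfsf10 (-11.19) and Gem (-10.66). These genes rose in BMDMs, with 433 to 475 counts of Tgtp2 and 1510 to 2012 counts of Ifi205 in the stimulated libraries. In RAW264.7, Tgtp2, Ifi205 and Tnfsf10 had 1 count each over the 4 libraries, Gfi1 had 3 and Gem had 1 and 4 in the controls, so for these genes too the size of the difference depends on the prior count. Tgtp2 is a near-identical copy of Tgtp1.

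Antisense counts lay outside the main measurement, and 21 genes had more and 15 fewer of them with LPS. The log2 changes with the smallest p were those of Gm14023 (13.17), Tmem132a (4.40) and Mir1198 (2.60). Tmem132a had 5 and 6 antisense counts in the controls and 115 and 117 with LPS, and it overlaps Slc15a3 on the other strand. Mir1198 had 26 and 29 against 157 and 170 antisense counts, and the annotation shows no gene across it on the opposite strand. Il1bos, which lies across Il1b on the other strand, had 0 sense counts in both controls and 19 and 26 with LPS. Its antisense counts, on the strand of Il1b, were 0 and 0 in the controls and 31 and 20 with LPS. Il1b itself had 5802 and 6543 sense counts with LPS. Over all genes, with Rn45s kept, sense counts were 104.6 and 99.1 times the antisense counts in these 2 LPS libraries. Reads of Il1bos and wrong-strand reads of Il1b cannot be told apart.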

How the results depend on the processing

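No named gene that passed changed sign under any alternative. Of 5744 combinations of a named gene that passed and an alternative, 5042 kept the call and 702 lost it, of which 299 arose with the cutoff as the null hypothesis and 91 with DESeq2. In the line, DESeq2 gave 754 genes higher and 472 lower, and 44 past the cutoffs on the lower side. A minimum of 10 counts in every library, which leaves fewer genes to test, gave 118 and 20 past the cutoffs, and the cutoff as the null hypothesis gave 115 and 6. Scaling by total counts alone, chosen after seeing the data, gave 876 higher and 2007 lower, and the fit of all 25 libraries gave 944 higher. Without 1 library, 997 to 1173 genes were higher and 763 to 971 lower, with 226 to 250 and 62 to 91 past the cutoffs. The lower count was 763 without LPS replicate 2 and 786 without LPS replicate 1, where the lone library is assumed to vary like the other group. For the difference from BMDMs, the 10-count minimum gave 93 and 289 past the cutoffs, the cutoff as the null 72 and 225, and total scaling 2429 higher and 1015 lower with 669 past the cutoffs on the higher side. Without 1 library these counts were 891 to 1133 higher and 1457 to 1708 lower, with 325 to 406 and 486 to 526 past the cutoffs. Antisense calls were 13 and 8 with DESeq2. Beyond the minimum of counts and the left-out libraries, the cause was not tested. Deviations of same-numbered libraries correlated at -0.0038, so the numbers were not shown to pair samples, and the replicate block gave 1429 higher and 1201 lower, with 225 and 77 past the cutoffs. Genes below the filter, such as Il10 and Ifnb1, could not be tested at this depth.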

Other observations

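Of the 225 genes past the cutoffs on the higher side, 104 were in no list. Those given here were named after their values were seen. Src-family kinases were among them, with Src from 2.57 and 2.23 CPM to 40.8 and 42.3 CPM (log2 fold change 4.08 ± 0.32, adjusted p = 1.63e-35) and Fgr from 8.14 and 12.05 CPM to 133 and 158 CPM (log2 fold change 3.85 ± 0.18, adjusted p = 1.1e-101). So were genes of actin and adhesion structures. Rhoc, a small GTPase, rose from 60.4 and 69.6 CPM to 321 and 316 CPM (log2 fold change 2.29 ± 0.11, adjusted p = 1.23e-101), and the related Rhob rose from 7.28 and 10.7 CPM to 49.9 and 41.8 CPM (log2 fold change 2.34 ± 0.23, adjusted p = 1.16e-22). Zyx, the focal adhesion protein zyxin, rose from 6.42 and 7.14 CPM to 32.7 and 36.5 CPM (log2 fold change 2.35 ± 0.27, adjusted p = 2.47e-17), and the unconventional myosins Myo10 and Myo1e rose with log2 fold changes of 2.53 and 2.16. Marcksl1, a membrane-bound actin regulator, rose from 18.4 and 21.9 CPM to 377 and 375 CPM (log2 fold change 4.22 ± 0.13, adjusted p = 2.93e-229).

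Other genes outside the lists act in signalling, chromatin or processing. Malt1, the paracaspase, rose from 75.8 and 59.8 CPM to 441 and 473 CPM (log2 fold change 2.75 ± 0.10, adjusted p = 7.29e-162), and Pde4b, a cyclic AMP phosphodiesterase, rose from 23.6 and 20.5 CPM to 185 and 221 CPM (log2 fold change 3.20 ± 0.14, adjusted p = 8.05e-111). Kdm6b, a histone H3K27 demethylase, rose from 4.28 and 2.23 CPM to 37.3 and 27.3 CPM (log2 fold change 3.27 ± 0.32, adjusted p = 1.04e-22), and Jdp2, an AP-1 repressor, rose from 35.97 and 36.1 CPM to 295 and 327 CPM (log2 fold change 3.11 ± 0.12, adjusted p = 1.29e-148). Furin, the proprotein convertase, rose from 45.4 and 53.6 CPM to 366 and 361 CPM (log2 fold change 2.88 ± 0.11, adjusted p = 2.44e-149), and Cpd, a carboxypeptidase of the secretory route, rose from 233 and 238 CPM to 1353 and 1455 CPM (log2 fold change 2.57 ± 0.07, adjusted p = 1.04e-250). On the lower side, Bhlhe41, a circadian repressor, fell from 27.8 and 38.4 CPM to 6.55 and 6.60 CPM (log2 fold change -2.32 ± 0.27, adjusted p = 4.8e-16), and Angpt2, a ligand of the receptor Tie2, fell from 11.6 and 16.96 CPM to 1.51 and 3.08 CPM (log2 fold change -2.57 ± 0.42, adjusted p = 1.59e-08). In all of these genes both LPS libraries lay beyond both control libraries.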
